A study of Mus musculus with 6 samples.

Results

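Bone is built by osteoblasts, which secrete a collagen matrix filled with small acidic proteins and then mineralize it. Some of them become osteocytes, the cells buried in bone that regulate its phosphate balance. Mineral grows where inorganic phosphate is released and pyrophosphate, which blocks crystal growth, is removed, so phosphatases, pyrophosphate-making enzymes and phosphate transporters act together with the matrix proteins. Healthy articular cartilage above its calcified layer does not mineralize. The 31 genes described here were given as a list of osteoblast, osteocyte and mineralization genes, and all 31 were found by symbol among the 17854 genes of the expression table. By role they are 8 matrix proteins, 7 transcription factors, 6 osteocyte and phosphate hormone genes, 6 mineralization enzymes and transporters, and 4 membrane and signalling genes.

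The cells were Tomato+ cells of male C57BL/6 mice, labelled as chondrocytes, in 3 libraries per group. The MSC-derived cells (Inject Prrx) came from repaired articular cartilage of mice with knee osteoarthritis made by cutting the anterior cruciate ligament. The joints of those mice had been injected with mesenchymal stromal cells (MSCs) from the inguinal white fat of *Prrx1-Cre; R26tdTomato* mice. The endogenous cells (Native Prrx) came from articular cartilage of age- and sex-matched *Prrx1-Cre; R26tdTomato* mice, with no surgery or injection described. *Prrx1-Cre* is active in early limb mesenchyme, so its label also marks bone cells of the limb. Cell source, surgery and injection changed together between the groups and cannot be told apart. The ages and the time after injection were not given for these libraries. The study used 3 mice per sample, but the sources do not say whether each library is 1 mouse, so the p-values measure only the spread between these libraries.

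The libraries held 22060628 to 24881796 expected counts each. The Spearman correlation of log2 counts scaled to library size was 0.995 within the MSC-derived group, 0.956 to 0.995 within the endogenous group and 0.698 to 0.739 between groups, and the lowest endogenous values were those of replicate 1. The label chondrocyte was checked against 10 cartilage genes. Their summed level was 22973 to 24836 TPM (transcript abundance scaled for transcript length and library) in endogenous and 435 to 447 TPM in MSC-derived libraries, with each of the 10 genes lower in the latter. All 12 macrophage genes went the other way, with sums of 134 to 198 TPM in endogenous and 14494 to 14829 TPM in MSC-derived libraries. The 7 erythroid genes summed to 18198 to 24576 and 79102 to 81411 TPM, respectively, and were all higher in the MSC-derived libraries. Over all genes tested (below), 30.3% were called lower and 31.3% higher in MSC-derived libraries. None of the cartilage, macrophage and erythroid markers was at 0 in every library of a group. The part of these marker differences in the results below was not tested, and in such bulk samples fewer cells of a type and less RNA per cell cannot be told apart.

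Sequences are shown for the genes on which the results turn most. *Bglap*, which encodes the bone matrix protein osteocalcin, was the most abundant of the 31 genes in endogenous cells, and its neighbour *Bglap2* encodes a nearly identical osteocalcin. The pair of coding sequences shows how little separates the reads of both genes. Capitals mark the bases that differ, from 5′ to 3′, in GENCODE M21 on GRCm38 with the coding exons joined. *Bglap* spans chr3:88383501-88384464 and *Bglap2* spans chr3:88377736-88378699, both on the minus strand.
Bglap: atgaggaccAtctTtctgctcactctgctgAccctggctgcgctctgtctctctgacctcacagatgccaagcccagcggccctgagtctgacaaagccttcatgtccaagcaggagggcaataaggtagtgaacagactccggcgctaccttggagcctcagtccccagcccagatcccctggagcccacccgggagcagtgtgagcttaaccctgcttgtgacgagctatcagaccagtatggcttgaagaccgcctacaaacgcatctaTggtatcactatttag
Bglap2: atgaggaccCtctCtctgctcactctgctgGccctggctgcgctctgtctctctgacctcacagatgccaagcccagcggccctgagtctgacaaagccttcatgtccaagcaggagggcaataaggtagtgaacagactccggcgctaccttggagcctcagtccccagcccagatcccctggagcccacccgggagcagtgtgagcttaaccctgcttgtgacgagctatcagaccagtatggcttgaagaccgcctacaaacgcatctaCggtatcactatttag
Counted from the first base of the start codon, from *Bglap* to *Bglap2*, the differences were A10C, T14C, A31G and T273C, so 4 of 288 bases differed and the identity was 98.6%. A read that covers none of these positions cannot be assigned to 1 copy by its coding bases, and RSEM then splits it between the copies by estimate. A further copy, *Bglap3*, was 95.5% identical to *Bglap*.

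The promoters of *Bglap* and *Spp1* are shown because these genes exchanged ranks between the groups (below). Each line holds 250 bases upstream of the transcription start in RefSeq on GRCm38.p6, read 5′ to 3′ on the gene's own strand. The *Bglap* window is chr3:88384467-88384716 (minus strand) and the *Spp1* window is chr5:104434861-104435110 (plus strand). *Spp1* has another window in RefSeq, and the one farther upstream is shown.
Bglap promoter: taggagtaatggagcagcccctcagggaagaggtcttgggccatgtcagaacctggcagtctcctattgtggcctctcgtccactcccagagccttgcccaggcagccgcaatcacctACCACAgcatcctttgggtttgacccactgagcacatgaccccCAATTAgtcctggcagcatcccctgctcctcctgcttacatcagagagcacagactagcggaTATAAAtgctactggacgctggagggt
Spp1 promoter: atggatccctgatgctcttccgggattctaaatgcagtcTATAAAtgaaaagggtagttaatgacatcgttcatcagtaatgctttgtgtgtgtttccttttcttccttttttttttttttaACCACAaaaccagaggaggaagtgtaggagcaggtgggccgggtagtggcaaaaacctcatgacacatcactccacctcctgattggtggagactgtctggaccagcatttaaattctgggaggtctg
Capitals mark the letters of 3 motifs searched on both strands, which share no bases here: a RUNX core (TGTGGT, reverse complement ACCACA), a homeodomain core (CAATTA, reverse complement TAATTG) and a TATA box (TATAAA, reverse complement TTTATA). In *Bglap* they lay at -132 to -127, -89 to -84 and -27 to -22 from the start. In *Spp1* the RUNX core lay at -128 to -123 and the TATA letters at -211 to -206. RefSeq windows were found for 18 of the 31 genes (23 windows). The RUNX core was in 26.1% of them and in 14% of all 32851 windows, the homeodomain core in 17.4% and 7.17%, and the TATA box in 26.1% and 12.4%. With 23 windows these shares rest on 6, 4 and 6 windows, and a match of letters is not a binding site.

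To ask how the bone program of MSC-derived cells compares with that of endogenous cells, each gene was tested in 1 fit across 14289 genes (edgeR quasi-likelihood test, Benjamini-Hochberg adjusted p of at most 0.05). Of the 31 genes, 29 were tested, and 27 were lower in MSC-derived than in endogenous cells, whereas 30.3% of all genes tested were lower (61.6% were called in either direction). *Mepe* and *Fgf23* did not pass the test, and *Sost* and *Ostn* did not pass the expression filter of edgeR. No gene of the list was higher: all 29 fold changes were negative, DESeq2 also called 0 higher, and 0 would be called at an unadjusted p of 0.05. The median log2 fold change (MSC-derived over endogenous) was -3.80, against 0.05 over all genes tested. It ranged from -8.11 for *Dmp1* to -0.80 for *Slc20a2*. A log2 fold change below -5 was found for 12 of the 29 genes and for 2.02% of all genes tested. It was also found for 9 of the 10 cartilage genes (median -6.44) and for 6 of 8 hypertrophic chondrocyte genes (median -5.69). *Sp7*, *Alpl* and *Ibsp* stand on both the hypertrophic list and the list of 31. In all 27 genes the highest MSC-derived library, in TMM-scaled counts, lay below the lowest endogenous library, which held for 34.1% of all genes tested (72.4% had no overlap in either direction).

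**Figure D1:**
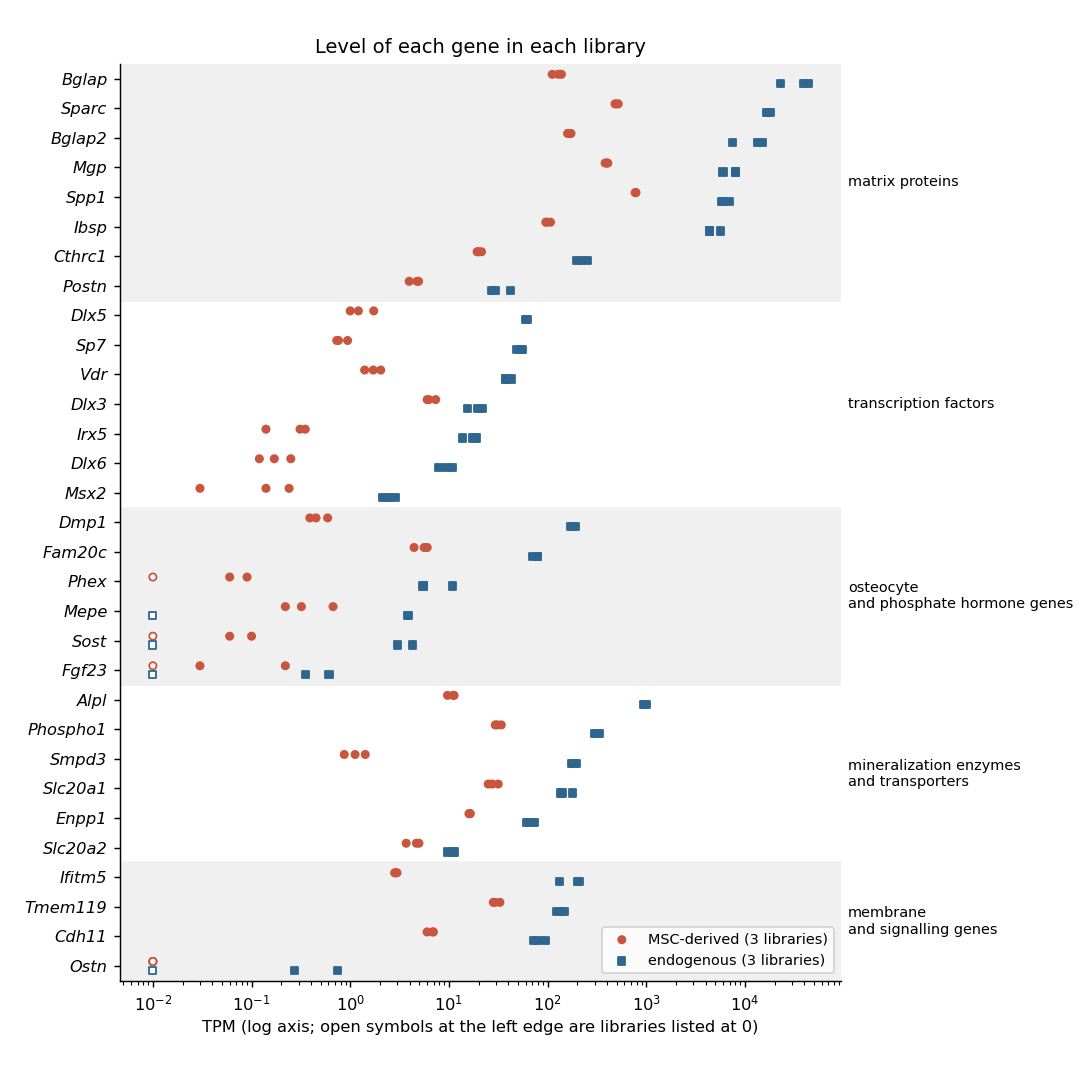
Level of the 31 genes in TPM (log axis) in the 3 MSC-derived (circles) and 3 endogenous (squares) libraries, 1 row per gene, grouped by role, with open symbols at the left edge for libraries listed at 0. The groups are apart in 27 rows, by far more in *Bglap* (111 to 138 against 22812 to 43655 TPM) than in *Slc20a2* (3.69 to 4.97 against 9.64 to 11.4 TPM).

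Summed over the 31 genes, the level was 2230 to 2270 TPM in MSC-derived libraries (2243 ± 22.9, SD, n = 3) and 69762, 96526 and 91046 TPM in endogenous replicates 1, 2 and 3 (85778 ± 14138). These genes thus made up 0.223 to 0.227% of all TPM in the former and 6.98 to 9.65% in the latter, a ratio of 38.2 between the means. The 3 endogenous sums, each divided by the MSC-derived mean, had an SD of 6.30, which leaves out the spread of the MSC-derived libraries. By counts, which favour long transcripts, the shares were 0.245 to 0.252% and 4.15 to 4.76%. A mean level of at least 100 TPM was reached by 6 of the genes in MSC-derived and by 14 in endogenous cells. A mean of at least 1 TPM was reached by 21 and 29 genes, respectively. Across the 31 genes the order of mean TPM was much alike in both groups (Spearman rho 0.871, a description over genes that share libraries).

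The matrix proteins held most of this level. All 8 were lower in MSC-derived cells, with a median log2 fold change of -4.23. In each group the same 6 genes, *Bglap*, *Sparc*, *Bglap2*, *Mgp*, *Spp1* and *Ibsp*, had the highest means. The other 25 genes summed to only 171 to 177 TPM in MSC-derived and 2749 to 2926 TPM in endogenous libraries.

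*Bglap* was at 128, 111 and 138 TPM in MSC-derived replicates 1, 2 and 3 and at 22812, 43655 and 39572 TPM in endogenous replicates 1, 2 and 3. Its log2 fold change was -7.73 (SE 0.35, adjusted p = 1.17e-06). *Bglap2* was at 159, 169 and 173 TPM against 7428, 15113 and 13458 TPM, a log2 fold change of -5.76 (SE 0.33, adjusted p = 4.12e-06). In both copies endogenous replicate 1 was the lowest of its group by far, but still far above every MSC-derived library. The counts of the pair were also summed before the fit, which removes the uncertain split of reads between these copies, though not with *Bglap3*. The log2 fold change of the sum was -6.94 (SE 0.33, adjusted p = 1.62e-06). *Bglap3*, which is not on the list, had a log2 fold change of -5.63.

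*Ibsp* encodes bone sialoprotein, an acidic protein that nucleates mineral. It was at 96.0, 107 and 98.1 TPM in MSC-derived and 5705, 4343 and 4398 TPM in endogenous libraries, with a log2 fold change of -5.13 (SE 0.09, adjusted p = 3.78e-08). *Spp1* encodes osteopontin, a phosphoprotein that inhibits crystal growth and is also made by macrophages and osteoclasts. It was at 782, 785 and 771 TPM against 6934, 5997 and 5782 TPM, and its log2 fold change of -2.56 (SE 0.05, adjusted p = 6.63e-08) was smaller than those of all other matrix genes but *Postn*. By mean TPM *Spp1* was therefore at rank 5 of the 31 genes in endogenous cells and at rank 1 in MSC-derived cells, while *Bglap* was at rank 1 and at rank 5, respectively.

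*Sparc*, encoding the collagen-binding protein osteonectin, was at 520, 501 and 482 TPM in MSC-derived and 17964, 16559 and 17011 TPM in endogenous libraries (log2 fold change -4.66, SE 0.06, adjusted p = 2.01e-08). *Mgp* encodes matrix Gla protein, an inhibitor of calcification that cartilage makes. It was at 408, 383 and 397 TPM against 5994, 8051 and 8077 TPM (log2 fold change -3.80, SE 0.17). Thus an inhibitor of mineral deposition was lower together with the proteins of mineralized matrix. *Cthrc1*, a secreted collagen repeat protein, was at 19.3 to 21.4 and 196 to 256 TPM (log2 fold change -3.02). *Postn*, encoding periostin of the periosteum, was at 3.96 to 4.93 and 27.1 to 41.8 TPM (log2 fold change -2.39).

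**Figure D2:**
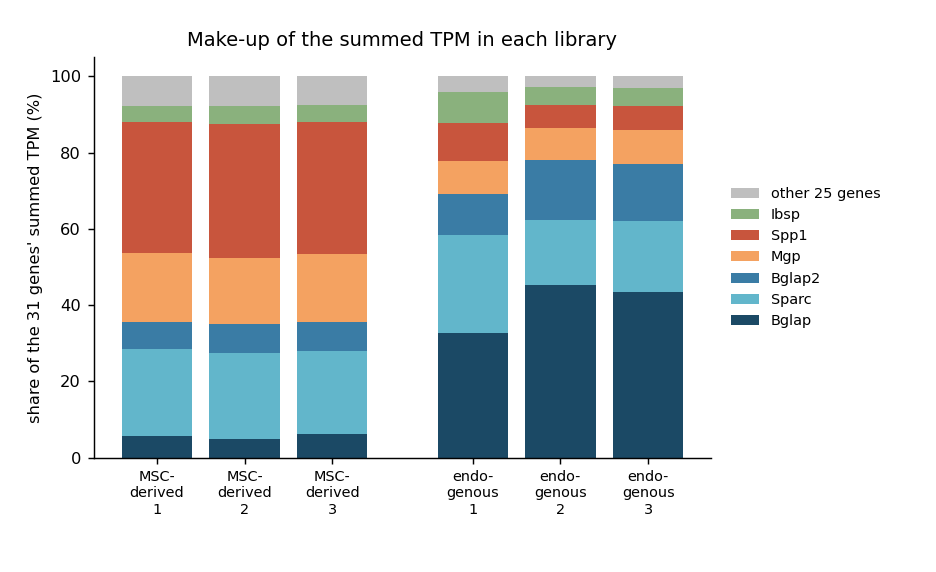
Share (%) that each of 6 matrix genes and the other 25 genes together took of the summed TPM of the 31 genes, 1 stacked bar per library. *Spp1* took 34.5 to 35.2% in the MSC-derived and 6.21 to 9.94% in the endogenous libraries, and *Bglap* took 4.99 to 6.19% and 32.7 to 45.2%.

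All 7 transcription factors were lower in MSC-derived cells, with a median log2 fold change of -5.08. *Sp7* encodes osterix, the factor that osteoblast precursors need to become osteoblasts. It was at 0.73, 0.94 and 0.76 TPM in MSC-derived and 55.8, 53.0 and 48.3 TPM in endogenous libraries, and its log2 fold change was -5.55 (SE 0.14, adjusted p = 9.99e-08). The homeobox genes *Dlx5* and *Dlx6* lie next to each other in the genome and promote osteoblast and limb development. *Dlx5* was at 1.73, 1.21 and 1.00 against 59.99, 60.8 and 62.1 TPM (log2 fold change -5.08, SE 0.22). *Dlx6* was at 0.17, 0.12 and 0.25 against 10.8, 9.45 and 7.83 TPM (log2 fold change -5.20, SE 0.47).

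*Irx5*, an Iroquois homeobox factor of bone and limb patterning, changed to a like degree (log2 fold change -5.52, SE 0.34, from 13.8 to 18.8 TPM in endogenous to 0.14 to 0.35 TPM in MSC-derived cells). *Msx2*, a homeobox factor of osteoblast precursors, was low in both groups, with 1, 9 and 5 counts in MSC-derived and 57, 58 and 80 in endogenous libraries, and its log2 fold change of -3.72 had the widest error among the factors (SE 0.72, adjusted p = 0.00295). The log2 fold change of *Msx2* was -3.22 without MSC-derived replicate 1 and -4.40 without MSC-derived replicate 2. *Vdr*, the vitamin D receptor, which controls *Bglap* and mineral handling, was at 1.40 to 2.04 against 37.4 to 42.7 TPM (log2 fold change -4.06). *Dlx3* stood apart from *Dlx5* and *Dlx6*. It was at 7.34, 6.27 and 6.02 TPM in MSC-derived and 15.4, 21.9 and 19.6 TPM in endogenous libraries, and its log2 fold change was -1.11 (SE 0.21, adjusted p = 0.00241). In MSC-derived cells *Dlx3* was thus the highest of the 7 factors by TPM, whereas in endogenous cells it was below *Dlx5*, *Sp7* and *Vdr*.

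The 6 osteocyte and phosphate hormone genes held the largest single change, that of *Dmp1*, and also the least certain values. The median log2 fold change of the 5 that were tested was -3.39. *Dmp1* encodes a matrix phosphoprotein of young osteocytes that promotes mineralization. It was at 0.59, 0.45 and 0.39 TPM in MSC-derived and 179, 190 and 170 TPM in endogenous libraries, with a log2 fold change of -8.11 (SE 0.17, adjusted p = 6.15e-08). *Phex*, an endopeptidase of the osteocyte membrane that restrains FGF23, had 0, 10 and 7 counts against 781, 454 and 474 counts (log2 fold change -6.69, SE 0.65, adjusted p = 7.33e-05). The log2 fold change of *Phex* was -6.08 without MSC-derived replicate 1 and -7.35 without MSC-derived replicate 2. *Fam20c* encodes the Golgi kinase that phosphorylates secreted acidic matrix proteins. It was at 4.43 to 6.03 against 70.6 to 79.6 TPM (log2 fold change -3.39, SE 0.14).

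The calls of the other 3 genes of that role changed with endogenous replicate 1, and that of *Sost* also with the filter and the test. *Mepe*, a matrix phosphoglycoprotein of osteocytes, had 20, 9 and 6 counts in MSC-derived and 0, 80 and 81 counts in endogenous libraries, and its log2 fold change of -2.27 (SE 1.31) had an adjusted p = 0.171. *Sost*, encoding the WNT inhibitor sclerostin of mature osteocytes, had 2, 0 and 3 counts against 0, 109 and 81 and did not pass the filter. With every library kept, *Sost* was called lower by DESeq2 (adjusted p = 0.00357) and by edgeR with no expression filter (adjusted p = 0.0309). *Fgf23*, the phosphate-lowering hormone of bone, had 1, 0 and 10 counts against 0, 18 and 12 (log2 fold change -1.45, SE 1.497, adjusted p = 0.430). The groups overlapped for each of these genes because endogenous replicate 1 was at 0. Without that library, the adjusted p was 4.61e-06 for *Mepe*, 1.18e-08 for *Sost* and 0.0340 for *Fgf23*, with log2 fold changes of -2.90, -5.85 and -2.10, while calls over all genes also rose, from 8801 of 14289 to 11249 of 14728. The fold change of *Fgf23* moved most without MSC-derived replicate 3 (-4.12, adjusted p = 0.159). *Fgf23* had at most 18 counts in any library, and the floor of 3 counts lay at 0.121 to 0.136 CPM (counts scaled to library size).

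Zeros at such levels were a property of that library beyond these genes. Of 1640 genes with a mean of 60 to 140 counts in endogenous replicates 2 and 3, 95 (5.79%) were at 0 in replicate 1, while a like check found 0 to 0.0708% in the other libraries. In it each MSC-derived library was set against the mean of the rest of its group, and endogenous replicates 2 and 3 against each other. Endogenous replicate 1 also had 3459 genes at 0 in all, against 1338 and 1395 in the other endogenous libraries. Among the 27 genes of the list with counts in all 3 endogenous libraries, replicate 1 was above the mean of the others in 10 and below it in 17, with a median log2 ratio of -0.07. *Bglap2* (-1.09), *Bglap* (-1.01), *Ifitm5* (-0.79) and *Dlx3* (-0.62) were the lowest there, and *Phex* (0.79) and *Postn* (0.36) the highest. The log2 fold change of *Bglap* without this library was -8.05, the lowest of its leave-one-out values.

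**Figure D3:**
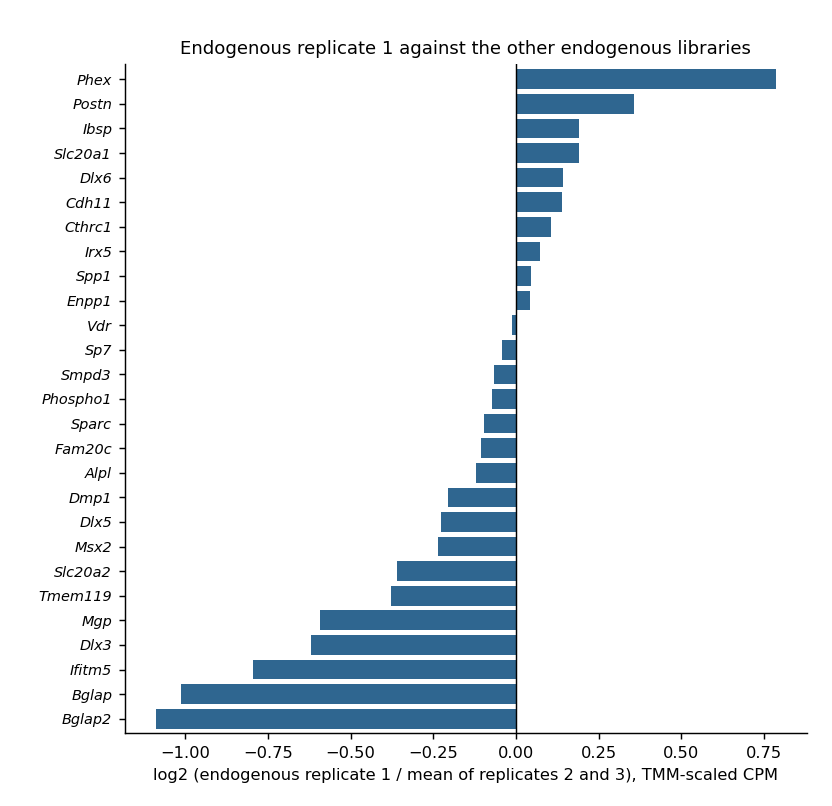
Log2 ratio of endogenous replicate 1 to the mean of endogenous replicates 2 and 3 (TMM-scaled CPM) for the 27 genes with counts in all 3 of them, 1 bar per gene. *Bglap* and *Bglap2* lie near -1, *Phex* lies at 0.79, and most of the other genes lie close to 0.

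All 6 mineralization enzymes and transporters were lower in MSC-derived cells, with a median log2 fold change of -2.41, but the size ranged widely. *Alpl* encodes tissue-nonspecific alkaline phosphatase, which splits pyrophosphate to phosphate. It was at 11.03, 11.3 and 9.68 TPM in MSC-derived and 1003, 946 and 955 TPM in endogenous libraries (log2 fold change -6.06, SE 0.09, adjusted p = 2.61e-08). *Smpd3* encodes a neutral sphingomyelinase needed for bone mineralization. It was at 1.12, 0.87 and 1.42 against 197, 184 and 177 TPM (log2 fold change -6.91, SE 0.18, adjusted p = 1.27e-07).

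*Phospho1*, a phosphatase of matrix vesicles, was at 29.5, 30.9 and 33.9 TPM against 339, 324 and 300 TPM (log2 fold change -2.91, SE 0.09). Its exons overlap *Abi3* on the opposite strand and *Zfp652* on the same strand, each by 1590 bases in GENCODE M21. *Abi3* was higher in MSC-derived cells (log2 fold change 2.01), and *Zfp652* did not pass the test (log2 fold change 0.07, adjusted p = 0.800). Reads of the overlap with *Zfp652* cannot be assigned by strand, and the counting was not stated to use strand, so those of *Abi3* cannot be told apart either, and the *Phospho1* level in MSC-derived cells is uncertain. The exons of *Smpd3* and *Prmt7* share 247 bases and those of *Slc20a2* and *Smim19* share 95, also on opposite strands. *Enpp1*, the ectoenzyme that makes pyrophosphate and so opposes *Alpl*, was at 15.96 to 16.5 against 61.4 to 74.4 TPM (log2 fold change -1.60, SE 0.07).

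The phosphate transporter *Slc20a1* (PiT1) was at 27.5, 31.6 and 25.02 against 178, 135 and 142 TPM (log2 fold change -1.92, SE 0.10). Its relative *Slc20a2* (PiT2) was at 4.68, 3.69 and 4.97 against 9.64, 11.4 and 11.1 TPM. That was the smallest change called among the 31 genes (log2 fold change -0.80, SE 0.19, adjusted p = 0.00706), and both transporters are used by many cell types. Within these 6 genes *Alpl* and *Smpd3* were thus the farthest apart between the groups, and *Slc20a2* and *Enpp1* the closest.

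Among the membrane and signalling genes, *Ifitm5*, an osteoblast membrane protein also called BRIL, was at 2.86, 2.98 and 2.82 TPM in MSC-derived and 133, 208 and 202 TPM in endogenous libraries (log2 fold change -5.55, SE 0.28, adjusted p = 2.20e-06). *Cdh11*, the mesenchymal or osteoblast cadherin, was at 6.01 to 6.97 against 72.0 to 95.2 TPM (log2 fold change -3.18, SE 0.10). *Tmem119*, a membrane protein that promotes osteoblast differentiation and also marks microglia, was at 28.2 to 32.9 against 124 to 148 TPM (log2 fold change -1.74, SE 0.13). *Ostn*, a secreted peptide of osteoblasts and muscle, had 0 counts in all MSC-derived libraries and 0, 8 and 3 in endogenous ones. A difference in *Ostn* was not detectable at this depth.

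**Figure D4:**
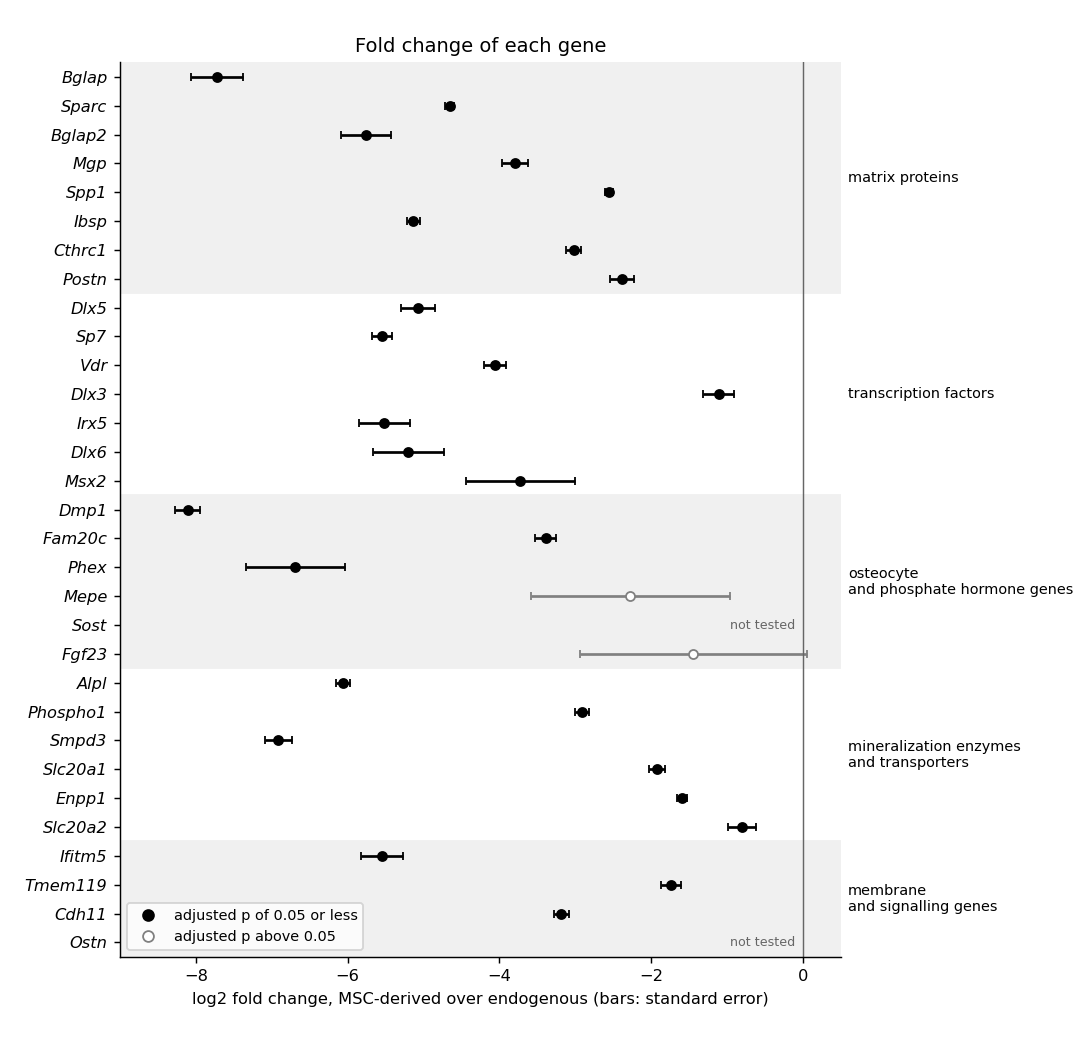
Log2 fold change (MSC-derived over endogenous, edgeR) of the 31 genes with its standard error, grouped by role, with filled points for an adjusted p of 0.05 or less. *Dmp1* lies at -8.11 and *Slc20a2* at -0.80, *Mepe* and *Fgf23* are open, and *Sost* and *Ostn* were not tested.

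Genes of the same process did not change by the same amount, which was described by the ratio of TPM of paired genes within each library. The 5 pairs were chosen after their values were seen. The ratio of *Bglap* to *Bglap2* was 0.802, 0.659 and 0.800 in MSC-derived and 3.07, 2.89 and 2.94 in endogenous libraries, so the copies exchanged their order. That ratio rests on the estimated split of reads between near-identical copies. For *Alpl* to *Enpp1*, which remove and make pyrophosphate, it was 0.669, 0.698 and 0.607 against 13.5, 15.4 and 14.8. The balance of these transcripts thus lay on the *Enpp1* side in MSC-derived and on the *Alpl* side in endogenous libraries.

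The ratio of *Spp1* to *Ibsp* moved the other way, from 1.22, 1.38 and 1.31 in endogenous to 8.15, 7.33 and 7.86 in MSC-derived libraries. *Dlx5* to *Dlx3* was 0.236, 0.193 and 0.166 in MSC-derived and 3.89, 2.78 and 3.17 in endogenous libraries. *Slc20a1* to *Slc20a2* was 5.87, 8.56 and 5.03 against 18.5, 11.8 and 12.8. In none of the 5 pairs did the groups overlap, but the pairs were chosen with these values known. The lack of overlap and the p-values are thus descriptions and no test of the pairs. The two-sided exact permutation p was 0.1 for each, which is the smallest that 3 against 3 libraries allow, and 0.1 after adjustment over the 5 pairs, so these differences cannot reach 0.05 in this design.

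**Figure D5:**
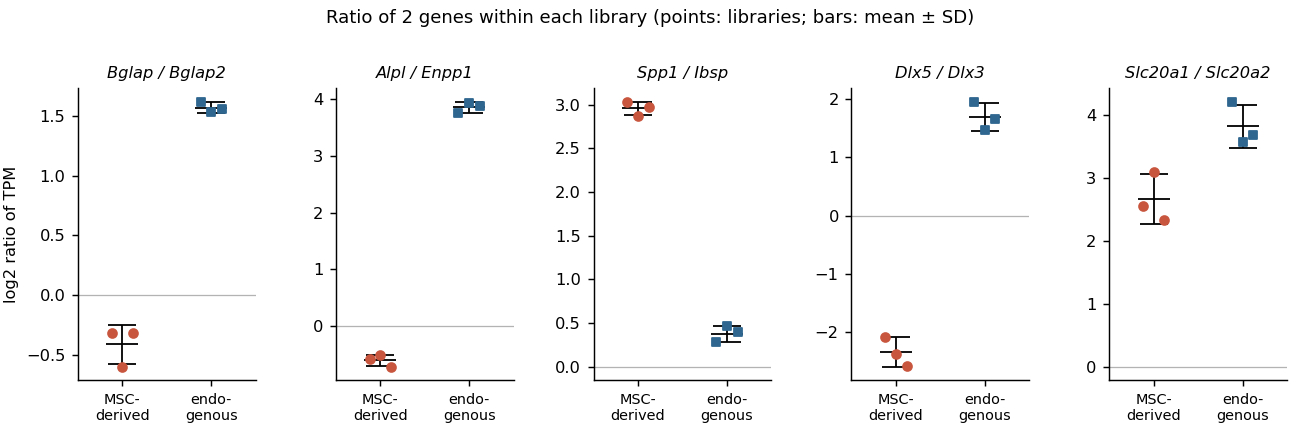
Log2 of the ratio of TPM of paired genes in each library, 1 panel per pair with its own scale, with points for libraries and bars for the mean ± SD of 3 libraries. *Alpl* to *Enpp1* lies below 0 in every MSC-derived library and near 4 in the endogenous ones, and *Spp1* to *Ibsp* is the 1 pair that is higher in MSC-derived libraries.

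Other genes of bone formation that are not among the 31 were read from a further list of 24 osteoblast and osteocyte genes. Of 23 tested, 20 were lower and 1 was higher in MSC-derived cells, with a median log2 fold change of -3.52. Of all genes tested, 30.3% were lower and 31.3% higher. The highest by TPM were the type I collagen chains *Col1a1* (log2 fold change -5.48) and *Col1a2* (-5.33) and the collagen chaperone *Serpinh1* (-3.84). *Col1a1* was at 331, 334 and 339 TPM in MSC-derived and 23514, 19584 and 18039.7 TPM in endogenous libraries. *Sema3a*, a semaphorin that protects bone, was the gene that was higher (log2 fold change 1.16, SE 0.18, adjusted p = 0.000909).

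Of 12 genes that control pyrophosphate, phosphate and calcification, 8 were tested. Of these, 5 were lower and 2 were higher, against 30.3% and 31.3% of all genes tested. The pyrophosphate exporter gene *Ank* (log2 fold change -3.49), the ectonucleotidase *Nt5e* (-2.94) and the FGF receptor *Fgfr1* (-3.57) were the most abundant in endogenous cells and were lower. *Galnt3*, whose product protects FGF23 from cleavage, was at 24.6 ± 0.548 TPM (SD, n = 3) in MSC-derived libraries and at 6.24, 3.46 and 3.74 TPM in endogenous libraries (log2 fold change 2.92, SE 0.18, adjusted p = 6.69e-06). *Xpr1*, a phosphate exporter, was higher by less (log2 fold change 0.89, SE 0.21, adjusted p = 0.00738), and with limma on log2(TPM + 1) it was not called (log2 difference 0.35, adjusted p = 0.103).

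Markers of cells that neighbour osteoblasts, or share these genes, moved as follows, where 30.3% of all genes tested were lower and 31.3% higher. All 8 hypertrophic chondrocyte genes were lower (6211 to 8040 TPM summed in endogenous and 152 to 162 TPM in MSC-derived libraries), but *Sp7*, *Alpl* and *Ibsp* stand on both lists. *Prrx1*, the gene whose promoter drives the Cre, had a log2 fold change of -2.15. Fibroblast and periosteal genes were lower in 7 of 8 (10030 to 12933 against 1777 to 1817 TPM), and 1 was higher. The 5 tendon and ligament genes gave 4 lower, and the 5 genes of the articular surface and synovial lining gave 4 lower. Common leukocyte genes were higher in 6 of 6 (325 to 441 TPM summed in endogenous and 7785 to 8223 TPM in MSC-derived libraries). Of 5 endothelial genes 4 were higher, and of 3 adipocyte genes tested 2 were lower and 1 was higher. Their part in the levels of the bone genes was not tested.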

How the data were processed

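Bulk RNA was sequenced from 3 MSC-derived and 3 endogenous libraries (Trizol extraction, TruSeq RNA kit). Per the study's methods, SOAPnuke removed poor reads, HISAT2 and Bowtie2 were the aligners, and RSEM gave the gene values. The submitters' processing notes name Bowtie2 2.2.5, RSEM 1.2.12 and mm9, so reference sequences, which are on GRCm38, carry their own coordinates and no coordinate was taken from the deposited table. The authors deposited expected counts per gene, FPKM, TPM and a further signal per gene. That deposited signal is a rescaled count with a single factor for each library and served only as a check. FPKM served only in alternatives. The 8 columns of group averages were not used.

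Expected counts were rounded to whole numbers (20.6% of values changed) for the quasi-likelihood test of edgeR 4.0.16 (R 4.3.3) over all 6 libraries, with filterByExpr, TMM scaling and no replicate block, Benjamini-Hochberg over 14289 genes, calls at 0.05. SE is a standard error derived from the test: the size of the log2 fold change divided by the square root of its F statistic. Levels are deposited TPM, so their ratios can differ from the fold changes, which come from TMM-scaled counts. The fit was tested on simulated counts, with fewer and smaller changes than in these data, so that test cannot judge the scaling or false calls here. Ratios used exact permutation tests. Counting floors (3 counts) cover counting error only. All 31 genes were named. For the further osteoblast and osteocyte list and the pyrophosphate and phosphate list, the 3 genes with the highest mean TPM in either group were named. Each gene of these lists that was higher was named too, and all genes of the osteoclast list. *Bglap3*, *Abi3*, *Zfp652*, *Prmt7*, *Smim19*, *Prrx1* and the genes of the 5 ratios were singled out after their values were seen. Members and lists were chosen with earlier results of these data known. Alternatives were DESeq2 1.42.0, other scalings and filters, limma 3.58.1 on log2 FPKM or TPM, a replicate block, summed osteocalcin copies, a threshold of 0.001 and leaving out each library. Figures used matplotlib 3.10.9.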

Additional observations from a re-analysis of the deposited data

How the results depend on the processing

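The 27 genes called lower stayed lower, past the threshold of 0.05, in each of 18 alternative settings, with a largest adjusted p of 0.0307. These settings gave 485 results of 1 gene in 1 setting, all from the same libraries. At a threshold of 0.001 *Dlx3*, *Msx2* and *Slc20a2* were lost (24 lower). The count of genes called lower was 27 to 30 when 1 library was left out, 28 with DESeq2 or with no expression filter, and 26 with *Bglap* and *Bglap2* summed. It reached 30 without endogenous replicate 1, where *Mepe*, *Fgf23* and *Sost* were called as well and calls over all genes rose to 11249 of 14728. *Sost* had an adjusted p of 0.00357 with DESeq2, 0.0309 with no filter, and 0.0841 to 0.107 without 1 MSC-derived library. *Ostn* had 0.298 and 0.106 with DESeq2 and no filter. The ratio of summed levels was 26.2 with FPKM, 18.2 with CPM and 19.7 without *Bglap* and *Bglap2*, and 35.8 to 41.8 when 1 library was left out. Of the osteoblast and osteocyte list outside the 31 genes, 2 were higher with library size only. Of the list for pyrophosphate and phosphate, 3 were higher with library size only, 1 with limma on log2(TPM + 1) and 1 at the threshold of 0.001 (*Xpr1* was lost in both of the latter), where 4514 genes in all were called against 8801. The median log2 fold change of all genes was 0.16 with library size only, 0.13 and 0.19 with limma on FPKM (pseudocounts 1 and 0.1) and -0.28 with limma on log2(TPM + 1), where 65.6% of all calls were lower against 49.2%. *Slc20a2*, the smallest called change, was -0.69 with library size only, -0.70 with the FPKM pseudocount of 0.1 and -1.11 with limma on TPM, and stayed lower. The cause of these changes was not tested. At this depth a difference in *Ostn*, with at most 8 counts in a library, was not detectable.

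Deviations of same-numbered libraries correlated at 0.013, 0.002 and 0.018, and those of the other pairs at -0.014 to 0.008. Each MSC-derived library correlated best with the endogenous library of its number, but endogenous replicate 2 correlated best with MSC-derived replicate 3. Correlations this small cannot show whether replicate numbers pair the libraries. With the replicate block, 27 of the genes were lower and 8023 genes in all were called.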

Other observations

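Osteoclasts, the cells that resorb bone, share the joint with osteoblasts, and their genes were read from a list of 8. Of 5 tested with edgeR, 3 were higher in MSC-derived libraries, against 31.3% of all genes tested. *Ctsk* and *Ocstamp* (log2 fold change 1.43, adjusted p = 0.345) did not pass the test. *Acp5*, tartrate-resistant acid phosphatase, was at 149, 146 and 137 TPM in MSC-derived and 28.0, 43.3 and 62.1 TPM in endogenous libraries (log2 fold change 2.12, SE 0.30, adjusted p = 0.000561). *Mmp9*, a gelatinase also made by neutrophils, was at 199 to 211 against 37.4 to 42.5 TPM (log2 fold change 2.77). *Atp6v0d2*, a subunit of the osteoclast proton pump, had a log2 fold change of 2.08. *Ctsk*, the collagen-degrading cathepsin of osteoclasts, was at 146, 154 and 158 TPM against 194, 212 and 228 TPM (log2 fold change -0.04, SE 0.12, adjusted p = 0.805). Its counts, on which the fit rests, overlapped between the groups (3959 to 4074 against 3230 to 4540). *Dcstamp*, *Calcr* and *Oscar* had too few counts to be tested, and *Calcr* was at 0 in all MSC-derived libraries.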
